A study of Homo sapiens with 12 samples.

Results

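The 10 genes described here are ligands, receptors and other parts of the pathways of transforming growth factor beta (TGF-beta), activin and bone morphogenetic protein (BMP). They were taken by symbol from a table of 58302 genes, and all 10 were found and tested. They are TGFB1, TGFB2, INHBA, BMP4, FST, TGFBR1, TGFBR2, TGFBR3, SMAD3 and ID1. RNA was sequenced from 12 libraries, 4 each of the prostate cell lines BPH-1 (benign by its label), DU145 and PC3 (both prostate cancer). All lines were labelled wild type, none was treated, and all were grown in Dulbecco's modified Eagle's medium with fetal bovine serum, penicillin and streptomycin. BPH-1 is epithelium from benign hyperplasia immortalised with a viral large T antigen, DU145 came from a brain metastasis and PC3 from a bone metastasis. Each line is a single isolate, so the differences below are between 3 cell lines, and line and disease state cannot be told apart. No label says that the replicates of a line were separate cultures, so p-values measure the spread between libraries, which may be technical.

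TGF-beta, activins and BMPs are secreted dimers that join a type II and a type I receptor on the cell surface. The type I receptor then phosphorylates SMAD proteins, SMAD2 and SMAD3 for TGF-beta and activin and SMAD1, SMAD5 and SMAD9 for BMP, which enter the nucleus with SMAD4. In prostate epithelium TGF-beta is known for restraining growth, and this restraint is often lost in advanced cancer.

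Values are FPKM, a level scaled by gene length. The length that fitted the values adds up every distinct annotated exon, so that bases in overlapping exons count more than once. It exceeds the merged exon length unequally, from 1.12-fold in TGFB1 to 2.64-fold in TGFBR1, so levels of different genes can be compared only roughly. The depth recovered from the values was between 12950665 and 16309559 reads per library. In bulk libraries fewer cells expressing a gene and less RNA per cell cannot be told apart. Of 5 epithelial markers, 5 reached 1 FPKM in a library of BPH-1 and of PC3 and 3 in DU145. KRT8 and KRT18 averaged at least 19.7 and 29.5 FPKM in each line. EPCAM (mean of 60.8 FPKM in BPH-1) was at 0.376 in DU145 and 9.10 in PC3, and CDH1 (28.4 in BPH-1) was at 0.180 in DU145 and 0.786 in PC3. The 3 basal epithelial markers (KRT5, KRT14 and TP63) summed to 298 to 427 FPKM in BPH-1. They summed to at most 0.994 in DU145 and at most 0.0645 in PC3. Each comparison with BPH-1 below therefore also sets a line with basal markers against a line almost without them. The luminal markers KLK2 and KLK3 were near or at 0 in every line, with a highest mean of 0.00284 FPKM for KLK2 in BPH-1. Of 5 leukocyte markers 3 reached 1 FPKM in a BPH-1 library, 3 in a DU145 library and 1 in a PC3 library. Their summed level was 13.6 to 18.2 FPKM in BPH-1, 5.06 to 15 in DU145 and 6.92 to 13.5 in PC3, with CD3E at 0 in all. The part of these marker differences and of other cells in the results below was not tested.

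The libraries differed in how expression followed the GC content of genes. Over 9218 genes the median log2 fold change of PC3 against BPH-1 was -0.98 among genes with a GC content of up to 44.4% (the lowest quartile) and 0.46 among those from 57.4% (the highest), and for DU145 against BPH-1 these medians were -1.06 and 0.50. DU145 replicates 1 and 3 stood apart from replicates 2 and 4. The slope of a library's deviation from its line's mean, in log2 units per 10 points of GC content, was 0.29 and 0.60 in replicates 1 and 3 and -0.52 and -0.37 in replicates 2 and 4, while BPH-1 libraries stayed between -0.06 and 0.04. In PC3 the slopes ran from -0.23 in replicate 1 to 0.37 in replicate 4. The cause was not tested. The values below are as deposited. Where dividing out each library's GC trend, or leaving out either DU145 pair, changed a call or a direction of 1 of the 10 genes, that is stated beside its value.

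Differences between lines were tested on log2(FPKM + 1) with limma over all genes that passed a minimum of reads, and a gene was called at an adjusted p under 0.05. In PC3 against BPH-1, 8 of the 10 members were called (5 higher and 3 lower in PC3), beside 67.6% of the 16407 genes tested (27.1% higher and 40.4% lower). In DU145 against BPH-1, 6 were called (1 higher and 5 lower in DU145), beside 62.7% of 17017 genes (30.3% higher and 32.4% lower). In PC3 against DU145, 5 were called (4 higher and 1 lower in PC3), beside 48.3% of 16421 genes (20% higher and 28.3% lower). These shares of all genes are large, and the counts of members called lie near them. The median log2 fold change of the members was 0.18, -0.22 and 0.33 in the 3 comparisons, against -0.13, -0.03 and -0.05 over all genes tested. The comparisons share libraries and are not independent of each other.

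**Figure D1:**
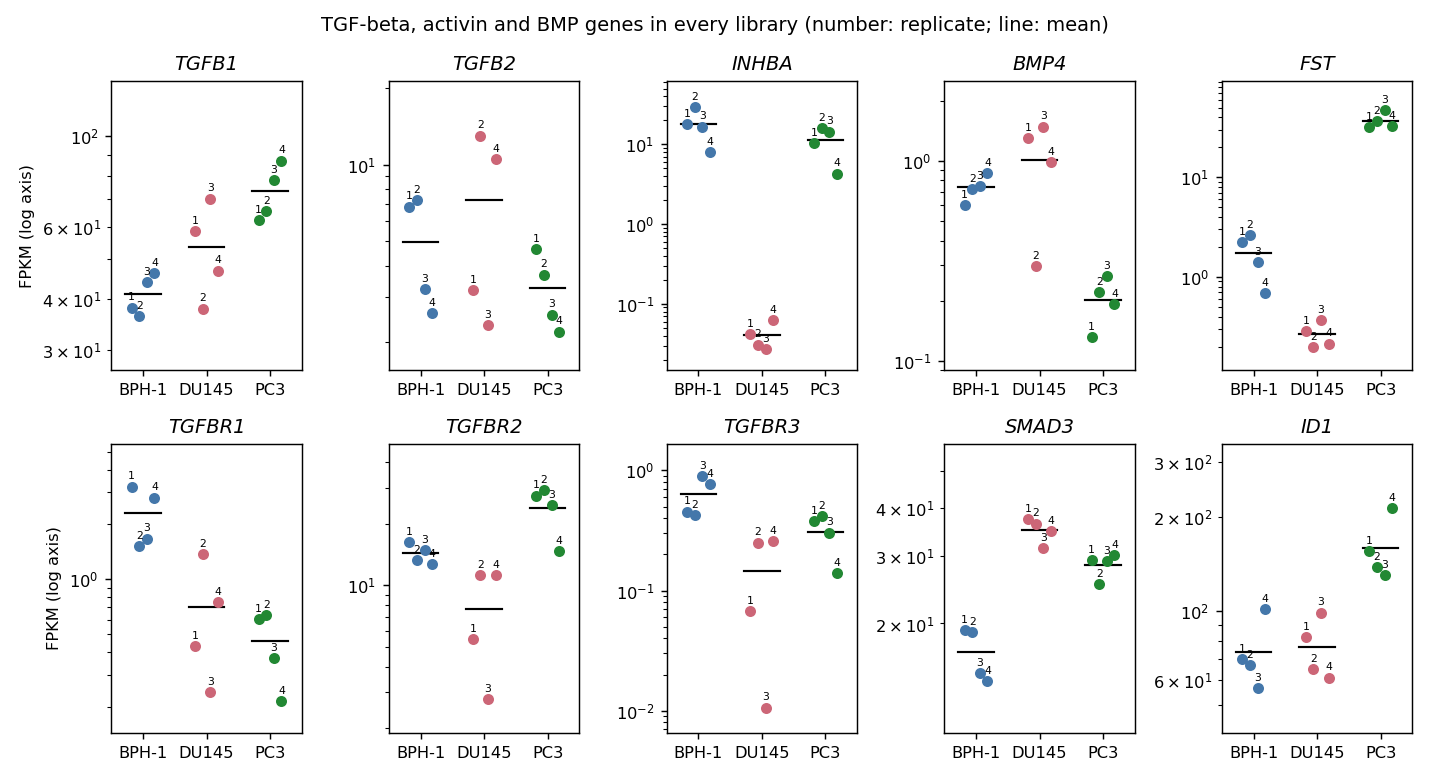
FPKM of each of the 10 genes on a log axis (each panel with its own range) in the 4 BPH-1, 4 DU145 and 4 PC3 libraries; numbers are replicates and lines are means. INHBA lay at 0.0271 to 0.0623 FPKM in DU145 and above 4 FPKM in every other library, and FST lay at 31.8 FPKM or more in PC3 and below 3 FPKM elsewhere.

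Among the 4 ligands of the set, INHBA had the largest differences between lines. INHBA (ENSG00000122641, chr7:41667168-41705834, minus strand, GRCh38) encodes the beta A subunit, which forms activin A. Its level was 18, 29.3, 16.8 and 8.0 FPKM in BPH-1 replicates 1 to 4, 0.0413, 0.0308, 0.0271 and 0.0623 in DU145, and 10.5, 16.0, 14.5 and 4.31 in PC3. Every DU145 library lay far below every other library and held only 5 to 10 reads of INHBA, while BPH-1 and PC3 overlapped. The mean in DU145, 0.0404 ± 0.0158 FPKM (SD, n = 4), was 446-fold below that of BPH-1, 18 ± 8.74, and the difference in log2(FPKM + 1) was -4.07 ± 0.31 (SE, adjusted p = 4.05e-06). PC3, at 11.3 ± 5.23 FPKM, was 281-fold above DU145 (log2 difference 3.44 ± 0.33, adjusted p = 3.61e-05). In both fits INHBA met the read minimum only through the line where it was high. A filter asking for the minimum in every library left it untested, so these p-values add no support beyond the levels themselves. Against BPH-1 the PC3 value was -0.63 ± 0.43 (adjusted p = 0.219) and was not called, and it ran from -0.95 without BPH-1 replicate 4 to -0.36 without BPH-1 replicate 2 and -0.27 without PC3 replicate 4. The antisense gene INHBA-AS1 shares no exon base with INHBA and averaged at most 0.0673 FPKM in a line.

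The 250 bases before a RefSeq start site of INHBA are shown because this gene was near 0 in 1 line and abundant in the others. They are from RefSeq (GRCh38.p14, chr7:41703091-41703340, minus strand) and 18 of them lie in an exon of the gene in GENCODE 29. This start lies inside the gene as GENCODE 29 places it, and which start the cells used was not tested. Capitals mark matches, on either strand, to the letters searched before all 10 genes. These were TATAAA (the core of a TATA box), GGGCGG (known as a GC box), TGANTCA (AP-1 site), CAGAC (the SMAD box with 1 flanking base), GGCGCC (a GC-rich SMAD element) and GTCTAGAC (the SMAD palindrome).
INHBA: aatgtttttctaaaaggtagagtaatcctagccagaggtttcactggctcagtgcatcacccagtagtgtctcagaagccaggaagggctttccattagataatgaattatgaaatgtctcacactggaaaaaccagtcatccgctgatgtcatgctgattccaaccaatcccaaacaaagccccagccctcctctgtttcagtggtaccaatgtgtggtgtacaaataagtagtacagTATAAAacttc
The only match is TATAAA, whose first base lies 11 bases before the start site, and 10.7% of 35116 RefSeq promoters of the same length hold these letters. GC content of the stretch was 42.8%, against 40.8% to 80.8% over the 10 genes. A match is a description of letters, and binding was not measured.

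TGFB1 and TGFB2 encode TGF-beta ligands. TGFB1 (ENSG00000105329, chr19:41301587-41353911, minus strand) stood at 38.0, 36.3, 43.8 and 46.2 FPKM in BPH-1, 58.6, 37.8, 70.3 and 46.8 in DU145 and 62.2, 65.4, 78.2 and 87.0 in PC3. All PC3 libraries lay above all BPH-1 libraries, and DU145 overlapped both. The PC3 mean of 73.2 ± 11.5 FPKM (SD, n = 4) was 1.78-fold that of BPH-1 (41.1 ± 4.69), with a log2 difference of 0.81 ± 0.13 (adjusted p = 5.04e-04). With the GC trend divided out it was 0.30, still called. DU145, at 53.4 ± 14.1 FPKM, did not pass against BPH-1 (0.34 ± 0.20, adjusted p = 0.166) or against PC3 (PC3 minus DU145 0.47 ± 0.21, adjusted p = 0.0874). Single libraries moved both calls: without DU145 replicate 2 the first was 0.49 (adjusted p = 0.0371), without DU145 replicate 3 it was 0.20 and the second 0.62 (adjusted p = 0.0250). The DU145 pairs decided them too. Without replicates 1 and 3 the first was 0.04 and not called and the second 0.77 and called (adjusted p = 0.00996), and without replicates 2 and 4 the first was 0.64 and called (adjusted p = 0.00511) and the second 0.17 and not called. With the GC trend divided out the first was -0.17 and not called and the second 0.47 and called (adjusted p = 0.00185). TGFB1 shares 215 exon bases with HNRNPUL1 on the other strand (29.1 to 43.7 FPKM by line), and whether reads were counted by strand is not given in the sources used here.

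TGFB2 (ENSG00000092969, chr1:218346235-218444619, plus strand) was lower in FPKM than TGFB1 in every library. BPH-1 held 6.82, 7.24, 3.23 and 2.59 FPKM, DU145 3.20, 13.0, 2.33 and 10.5, and PC3 4.63, 3.68, 2.56 and 2.20. The lines overlapped, and within DU145 replicates 2 and 4 lay above replicates 1 and 3, which are the pairs that stood apart in GC slope. TGFB2 has the lowest GC content of the 10 genes (38.9%). No comparison was called: the value was -0.43 ± 0.30 for PC3 minus BPH-1 (adjusted p = 0.235), 0.30 ± 0.49 for DU145 minus BPH-1 (adjusted p = 0.606) and, for PC3 minus DU145, -0.73 ± 0.46 (adjusted p = 0.228). With the GC trend divided out all 3 were called, at 0.64 (turned in sign, adjusted p = 0.0392), 1.44 (adjusted p = 0.00197) and -0.80 (adjusted p = 0.00514). DU145 against BPH-1 was 1.18 without DU145 replicates 1 and 3 (adjusted p = 0.0288), -0.58 without replicates 2 and 4 (adjusted p = 0.191) and -0.04 without replicate 2 alone. PC3 against DU145 was called at -1.61 without replicates 1 and 3 (adjusted p = 0.00218) and stood at 0.15, not called, without replicates 2 and 4. TGFB2-OT1 lies on the same strand, shares 1371 exon bases with TGFB2 and averaged 0.328 to 0.437 FPKM, so its reads cannot be told apart in the shared part.

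BMP4 (ENSG00000125378, chr14:53949736-53958761, minus strand), a BMP ligand, was low in all lines. It was at 0.603, 0.721, 0.751 and 0.873 FPKM in BPH-1, 1.3, 0.297, 1.49 and 0.987 in DU145 and 0.132, 0.220, 0.265 and 0.192 in PC3, where these values stand for 13 to 28 reads. Every PC3 library lay below every library of the other lines, although DU145 replicate 2 came close. The PC3 mean (0.202 ± 0.0556 FPKM) was 3.65-fold below BPH-1 (0.737 ± 0.111), a log2 difference of -0.53 ± 0.06 (adjusted p = 6.73e-05), and 5.04-fold below DU145 (1.02 ± 0.523), a difference of -0.71 ± 0.18 (adjusted p = 0.0106). Without DU145 replicates 1 and 3 the latter was -0.42 and not called (adjusted p = 0.0642). DU145 against BPH-1 was 0.18 ± 0.19 (adjusted p = 0.426) and was called at 0.37 without DU145 replicate 2 (adjusted p = 0.0189) and at 0.46 without replicates 2 and 4 (adjusted p = 0.00466). It was -0.03 with the GC trend divided out and -0.11 without replicates 1 and 3, neither called.

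FST encodes follistatin, a secreted protein that binds activins and blocks them. FST (ENSG00000134363, chr5:53480409-53487134, plus strand) measured 2.22, 2.64, 1.40 and 0.690 FPKM in BPH-1, 0.288, 0.198, 0.372 and 0.214 in DU145 and 31.8, 36.5, 46.9 and 32.9 in PC3. The 3 lines did not overlap. PC3 (37 ± 6.88 FPKM) was 21.3-fold above BPH-1 (1.74 ± 0.870), with a log2 difference of 3.84 ± 0.24 (adjusted p = 1.09e-06), and 138-fold above DU145 (0.268 ± 0.0797), with 4.89 ± 0.16 (adjusted p = 8.01e-08). DU145 was 6.49-fold below BPH-1 (-1.05 ± 0.21, adjusted p = 0.00166), on 16 to 32 reads per DU145 library. These differences were past the threshold under all alternatives run. They were 3.92, 4.90 and -0.98 with the GC trend divided out. PC3 thus held both INHBA and its antagonist transcript above 4 FPKM in every library, BPH-1 held INHBA at 8.0 FPKM or more with FST at 2.64 or less, and DU145 held both below 0.4 FPKM.

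The receptor genes were mostly lower in the cancer lines than in BPH-1, with TGFBR2 in PC3 as the exception. TGFBR2 (ENSG00000163513, chr3:30606502-30694142, plus strand), the type II receptor that binds TGF-beta first, was at 16.3, 13.3, 14.9 and 12.7 FPKM in BPH-1, 5.45, 11.2, 2.77 and 11.2 in DU145 and 27.4, 29.2, 24.6 and 14.6 in PC3. PC3 replicate 4 lay within the range of BPH-1, and the other PC3 libraries lay above it. All DU145 libraries lay below all others. PC3 (24.0 ± 6.49 FPKM) against BPH-1 (14.3 ± 1.61) was 1.68-fold higher, 0.67 ± 0.20 on the log2 scale (adjusted p = 0.0142). That call was lost after scaling every library to 1 common sum (0.41, adjusted p = 0.0900), with 1 fit over the 3 lines (adjusted p = 0.104) and by the exact permutation test (p = 0.0857, two-sided).

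DU145 (7.67 ± 4.26 FPKM) held TGFBR2 1.86-fold below BPH-1, at -0.97 ± 0.35 (adjusted p = 0.0336), and PC3 was 3.12-fold above DU145, at 1.64 ± 0.39 (adjusted p = 0.00720). The DU145 spread followed the replicate pairs: replicates 2 and 4 were both at 11.2 FPKM and replicates 1 and 3 at 5.45 and 2.77. Without replicates 1 and 3 the difference from BPH-1 was -0.32 and not called (adjusted p = 0.0560), and without replicates 2 and 4 it was -1.63 and called. Leaving out BPH-1 replicate 1, 2, 3 or 4 or DU145 replicate 1 also ended the call, with adjusted p between 0.0547 and 0.0841 and a difference between -1.02 and -0.88, and without DU145 replicate 3 it was called at -0.62. The call was lost with no filter on low values too (adjusted p = 0.0750). The difference was called in 14 of 21 alternatives. It was called at -0.90 with the GC trend divided out. PC3 against DU145 stayed called under all alternatives run, at 0.98 without replicates 1 and 3.

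TGFBR1 (ENSG00000106799, chr9:99104038-99154192, plus strand) encodes the type I receptor that phosphorylates SMAD2 and SMAD3. Its level was 3.23, 1.52, 1.67 and 2.81 FPKM in BPH-1, 0.430, 1.38, 0.240 and 0.75 in DU145 and 0.606, 0.633, 0.371 and 0.214 in PC3. Both cancer lines lay below BPH-1 without overlap and overlapped each other. The means were 2.31 ± 0.842 FPKM in BPH-1, 0.700 ± 0.50 in DU145 and 0.456 ± 0.200 in PC3. PC3 against BPH-1 was -1.16 ± 0.18 (5.06-fold lower, adjusted p = 4.00e-04) and DU145 against BPH-1 -0.97 ± 0.24 (3.29-fold lower, adjusted p = 0.00536). TGFBR1 has a GC content of 39.7%, and with the GC trend divided out PC3 was called at -0.50 and DU145 was not called at -0.28 (adjusted p = 0.138). The DU145 call was also lost without DU145 replicates 1 and 3 (-0.66, adjusted p = 0.0621). PC3 against DU145 was -0.19 ± 0.20 (adjusted p = 0.458), with 0.12 without DU145 replicates 2 and 4 and a called -0.50 without replicates 1 and 3 (adjusted p = 0.0482).

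TGFBR3 (ENSG00000069702, chr1:91680343-91906335, minus strand) encodes betaglycan, a co-receptor that presents TGF-beta, TGFB2 above all, to the signalling receptors. In FPKM it was the lowest of the 3 receptors by its mean in each line, at 0.453, 0.422, 0.889 and 0.769 FPKM in BPH-1, 0.0673, 0.251, 0.0106 and 0.256 in DU145 and 0.379, 0.418, 0.303 and 0.139 in PC3. All libraries of both cancer lines were below those of BPH-1, with PC3 replicate 2 (0.418) close to BPH-1 replicate 2 (0.422). DU145 replicate 3 held 3 reads. DU145 (0.146 ± 0.126 FPKM) was 4.33-fold below BPH-1 (0.633 ± 0.232), at -0.51 ± 0.11 (adjusted p = 0.00305), and still called with the GC trend divided out (-0.45). In that comparison TGFBR3 met the read minimum only with the help of BPH-1, and a filter asking for it in every library left the gene untested. PC3 (0.310 ± 0.123 FPKM) was 2.04-fold below BPH-1, at -0.31 ± 0.11 (adjusted p = 0.0287). The difference was called in 11 of 19 alternatives. The call was lost with the GC trend divided out (-0.23, adjusted p = 0.0585), with no filter on low values (adjusted p = 0.0736), with upper-quartile scaling (adjusted p = 0.0566) and on leaving out BPH-1 replicate 3 or 4 or PC3 replicate 3 or 4 (-0.31 to -0.24, adjusted p between 0.0588 and 0.0770). PC3 against DU145 was 0.19 ± 0.10 (adjusted p = 0.124), and it was called at 0.26 without PC3 replicate 4 (adjusted p = 0.0422), at 0.33 without DU145 replicates 2 and 4 (adjusted p = 0.0236) and at 0.22 with the GC trend divided out (adjusted p = 0.0404).

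SMAD3 (ENSG00000166949, chr15:67063763-67195195, plus strand), which carries the TGF-beta and activin signal to the nucleus, was higher in both cancer lines. Values were 19.2, 19.0, 14.9 and 14.2 FPKM in BPH-1, 37.4, 36.4, 31.4 and 34.8 in DU145 and 29.3, 25.3, 29 and 30.1 in PC3. No line overlapped another. DU145 (35.0 ± 2.60 FPKM) was 2.08-fold and PC3 (28.4 ± 2.14) 1.69-fold above BPH-1 (16.8 ± 2.68), with log2 differences of 1.03 ± 0.16 (adjusted p = 3.01e-04) and 0.73 ± 0.13 (adjusted p = 6.65e-04). The GC step left them at 0.61 and 0.45, both called. PC3 against DU145 was -0.29 ± 0.12 and did not pass (adjusted p = 0.0707), although every PC3 library was below every DU145 library (exact permutation p = 0.0286, two-sided, the smallest that 4 against 4 libraries allow). Without DU145 replicate 3 it was -0.34 and called (adjusted p = 0.0412). SMAD3 shares 182 exon bases with AC087482.1 on the other strand, which averaged at most 0.683 FPKM.

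ID1 (ENSG00000125968, chr20:31605283-31606515, plus strand) encodes an inhibitor of DNA binding that is a classic target of BMP signalling. In FPKM it was the highest of the 10 transcripts by its mean in every line, at 69.9, 66.9, 56.5 and 101 FPKM in BPH-1, 82.5, 65.3, 98.6 and 61.1 in DU145 and 155, 138, 130 and 214 in PC3. Every PC3 library lay above every other library, and BPH-1 and DU145 overlapped. PC3 (159 ± 37.7 FPKM) was 2.16-fold above BPH-1 (73.7 ± 19.3), at 1.11 ± 0.20 (adjusted p = 9.79e-04), and 2.07-fold above DU145 (76.9 ± 17.2), at 1.04 ± 0.21 (adjusted p = 0.00279). These were 0.68 and 1.10 with the GC trend divided out, both called. DU145 against BPH-1 was 0.07 ± 0.22 (adjusted p = 0.800), close to 0, and its sign changed with single libraries (-0.05 without BPH-1 replicate 3, -0.06 without DU145 replicate 3). Without DU145 replicates 1 and 3 it was -0.19, not called. It was called at -0.42 with the GC trend divided out (adjusted p = 0.0418).

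The bases before a RefSeq start site each of SMAD3 and ID1 are shown because SMAD3 was higher in both cancer lines and ID1 in PC3 alone of the 2. Each stretch is 250 bases of RefSeq sequence on GRCh38.p14, SMAD3 at chr15:67065352-67065601 and ID1 at chr20:31605039-31605288, both on the plus strand. GENCODE 29 puts no exon base of SMAD3 and 6 of ID1 in them. The SMAD3 start lies inside the gene as GENCODE 29 places it, and which start the cells used was not tested. Capitals mark the same letters as for INHBA.
SMAD3: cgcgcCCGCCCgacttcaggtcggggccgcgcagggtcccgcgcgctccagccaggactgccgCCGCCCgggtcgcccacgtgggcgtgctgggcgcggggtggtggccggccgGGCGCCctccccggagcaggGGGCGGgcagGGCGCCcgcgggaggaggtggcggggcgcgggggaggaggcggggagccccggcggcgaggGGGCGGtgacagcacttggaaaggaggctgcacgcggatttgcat
ID1: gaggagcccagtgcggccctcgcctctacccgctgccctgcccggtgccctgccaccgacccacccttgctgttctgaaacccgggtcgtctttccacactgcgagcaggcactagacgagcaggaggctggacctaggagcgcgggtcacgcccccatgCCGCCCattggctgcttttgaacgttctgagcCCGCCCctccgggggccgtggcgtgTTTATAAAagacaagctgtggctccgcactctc
SMAD3 held 4 GC boxes and 2 matches to GGCGCC, and its GC content was 80.8%. ID1 held 2 GC boxes, 90 and 58 bases before the start, and TATAAA on both strands in overlapping positions that begin 33 and 31 bases before it. GGGCGG is in 42.6% and GGCGCC in 16.4% of the 35116 promoters. CAGAC, found in 38.0% of them, was in neither stretch, and neither were TGANTCA (6.57%) or GTCTAGAC (0.182%).

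**Figure D2:**
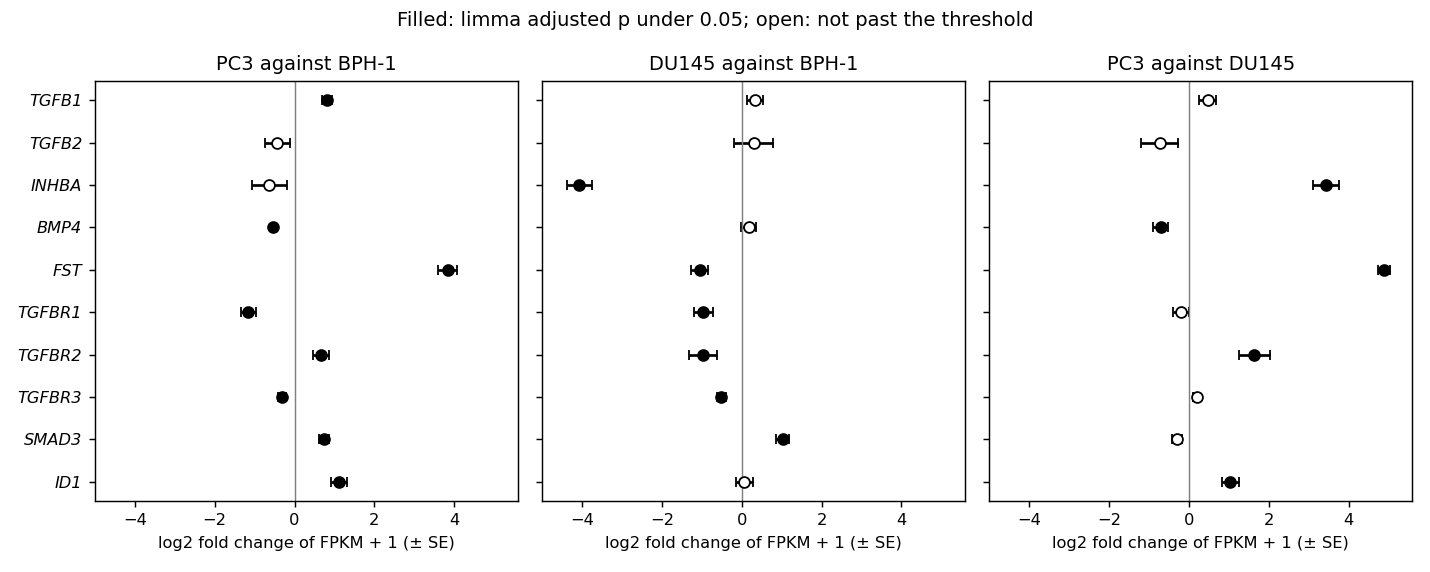
Log2 fold change of FPKM + 1 with its standard error for the 10 genes in each pair of lines; filled points passed an adjusted p under 0.05. FST in PC3 (3.84 against BPH-1, 4.89 against DU145) and INHBA in DU145 (-4.07 against BPH-1) lie farthest from 0.

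After the GC trend was divided out, the differences of FST, and that of INHBA in DU145 against BPH-1 (-4.07 before and -3.82 after), stayed near their measured size, while INHBA in PC3 against BPH-1 went from -0.63 to -0.31. TGFB2 and TGFBR1, at 38.9% and 39.7% GC, moved upward in both comparisons with BPH-1, and TGFB1 and ID1, at 61.4% and 58.2%, moved downward. After this step 8 of the 10 members were called in PC3 against BPH-1, beside 64.4% of 16394 genes, 7 in DU145 against BPH-1, beside 62.6% of 17003, and 8 in PC3 against DU145, beside 59.1% of 16408. The step also removes any difference between lines that itself follows GC content.

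**Figure D3:**
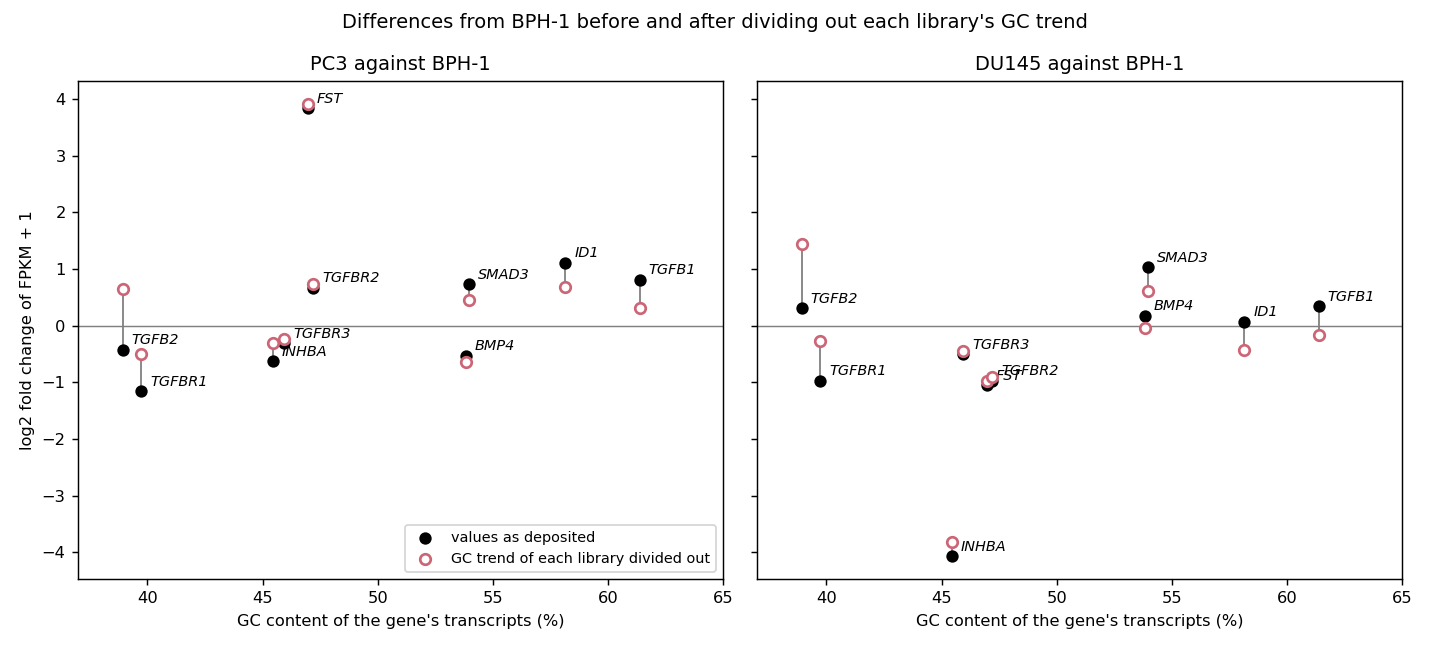
Log2 fold change against BPH-1 of the 10 genes by GC content of their transcripts, as deposited (filled) and with each library's GC trend divided out (open), for PC3 (left) and DU145 (right). TGFB2 at 38.9% GC moved from -0.43 to 0.64 in PC3 and from 0.30 to 1.44 in DU145, while FST and INHBA kept their sign.

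Beyond these 10 genes, 115 other genes of the pathways were listed by role. In PC3 against BPH-1, 61 of the 78 tested were called (25 higher, 36 lower), which is 78.2% beside 67.6% of all genes. In DU145 against BPH-1 62 of 82 were called (28 higher, 34 lower), 75.6% beside 62.7%, and in PC3 against DU145 43 of 79 (21 higher, 22 lower), 54.4% beside 48.3%. The counts by role below are to be read against these shares of all genes, and by direction against the shares higher and lower given above with the members. The medians of the tested genes were -0.28, -0.14 and 0.02 on the log2 scale. The lists were chosen with earlier results of these data known. Some genes, such as BMP2 in DU145 against BPH-1, met the read minimum only through the line where they were high. With a filter asking for it in every library, 52, 47 and 27 listed genes were called in the 3 comparisons. Over all genes 8439 of 13067, 7721 of 13174 and 5298 of 12866 were then called.

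Of 29 other ligands, 11 were tested in PC3 against BPH-1, with 7 higher and 2 lower, and 15 in DU145 against BPH-1, with 6 higher and 5 lower. INHBB, the activin beta B subunit, stood at 0.971 ± 0.329 FPKM in BPH-1, 0.111 ± 0.0869 in DU145 and 54.1 ± 14.9 in PC3 (4.78 against BPH-1, adjusted p = 1.24e-07), so both activin subunit transcripts INHBA and INHBB were low in DU145. INHBE, another inhibin beta subunit, was at 4.95 ± 1.78 FPKM in DU145 and at most 0.0976 in any library of the other lines. BMP2 was at 6.05 ± 0.525 FPKM in BPH-1, listed at 0 in all DU145 libraries and at 0.478 ± 0.0819 in PC3. BMP7 was lower in both cancer lines, at 1.52 ± 0.724 FPKM in BPH-1 and 0.435 ± 0.157 in DU145, and it was at 0.00924 FPKM or less in PC3. TGFB3 was higher in PC3 (3.31 ± 0.814 against 0.637 ± 0.146 FPKM in BPH-1) and lower in DU145 (0.345 ± 0.0762). GDF15, a distant stress-induced member of the family, was higher in both cancer lines (3.08 ± 1.32 FPKM in BPH-1, 12.1 ± 5.03 in DU145, 20.1 ± 10.9 in PC3).

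Among 16 other receptors and co-receptors, 3 were higher and 5 lower of 11 tested in PC3 against BPH-1, and 2 higher and 6 lower of 10 in DU145 against BPH-1. ENG (endoglin, a co-receptor) was at 11.6 ± 1.17 FPKM in BPH-1, 0.0314 ± 0.0159 in DU145 and 3.84 ± 0.247 in PC3. NEO1 (neogenin, which binds BMP co-receptors of the RGM family) was higher in DU145 (10.5 ± 3.01 against 1.32 ± 0.144 FPKM) and lower in PC3 (0.182 ± 0.0250). RGMB, one of those co-receptors, was higher in both (3.20 ± 0.313 FPKM in BPH-1, 6.94 ± 2.65 in DU145, 8.26 ± 0.421 in PC3), but in DU145 the call was lost with the GC trend divided out (adjusted p = 0.0975). The BMP type II receptor gene BMPR2 was lower in PC3 by -1.41 ± 0.22 and in DU145 by -1.98 ± 0.26, and with the GC trend divided out the values were -0.18 (adjusted p = 0.341) and -0.88 (adjusted p = 0.00111). BMPR1A was lower in PC3 (-0.93, adjusted p = 0.00165) and in DU145 (-0.89, adjusted p = 0.0204), where the call was lost with the GC trend divided out (adjusted p = 0.111). ACVR2A, an activin type II receptor, was called lower in both (-0.31 in PC3 and -0.32 in DU145), and with the GC trend divided out it was at 0.13 in each and not called. ACVR1 and ACVR1B did not pass in any of the 3 comparisons, with values between -0.36 and 0.32. With the GC trend divided out ACVR1 was called in DU145 against BPH-1 (0.36, adjusted p = 0.0368) and ACVR1B in PC3 against BPH-1 (-0.58, adjusted p = 0.0447).

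All 7 other SMADs were tested. SMAD5, a BMP-activated SMAD, was lower in both cancer lines (4.29 ± 0.259 FPKM in BPH-1, 0.951 ± 0.714 in DU145, 0.579 ± 0.283 in PC3). Of the inhibitory SMADs, SMAD6 was higher in both (1.04 ± 0.483, 3.25 ± 0.724 and 3.99 ± 0.264 FPKM), while SMAD7 was higher in DU145 (4.05 ± 0.781 against 2.03 ± 0.119) and lower in PC3 (0.277 ± 0.0943). SMAD9 was higher in DU145 than in BPH-1 (0.91, adjusted p = 0.00261) and lower in PC3 than in DU145 (-0.94, adjusted p = 0.00400), and it did not pass in PC3 against BPH-1. SMAD2 was called lower in PC3 (-0.33) and SMAD4 lower in DU145 (-0.52), and neither of these was called with the GC trend divided out (0.13 and 0.05). That step called SMAD2 in DU145 against BPH-1 (0.73, adjusted p = 2.66e-05, from 0.16) and in PC3 against DU145 (-0.59, adjusted p = 1.08e-04, from -0.49), and it called SMAD4 in PC3 against BPH-1 with the other sign (0.29, adjusted p = 0.0111, from -0.30). SMAD1 did not pass in any comparison (-0.52 to 0.14).

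**Figure D4:**
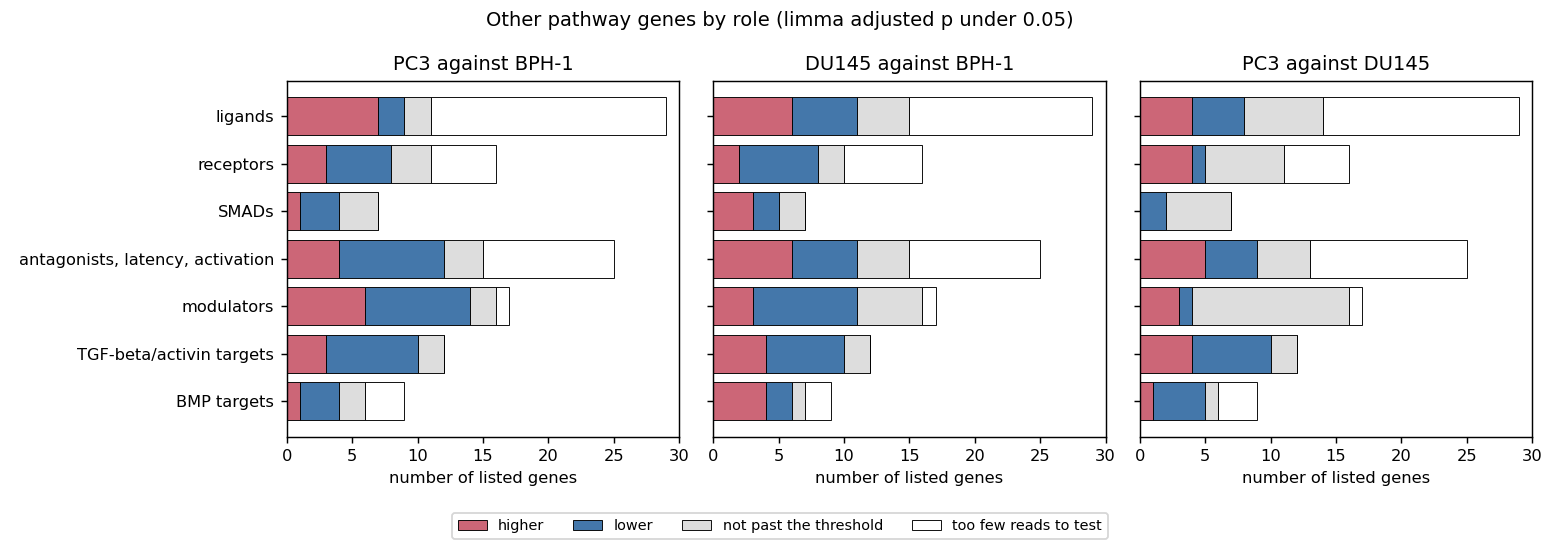
Number of the 115 other pathway genes by role that were higher, lower, not past the threshold or too low to test in each comparison. Of the modulators, 14 of 16 tested were called in PC3 against BPH-1 and 4 of 16 in PC3 against DU145, beside 67.6% and 48.3% of all genes tested.

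Extracellular antagonists and regulators of latency held 15 tested genes in each comparison with BPH-1, with 4 higher and 8 lower in PC3 and 6 higher and 5 lower in DU145. NOG (noggin, which sequesters BMPs) was 1.07 ± 0.111 FPKM in BPH-1, 4.07 ± 0.906 in DU145 and 13.6 ± 0.890 in PC3, with no overlap between lines. Latent TGF-beta binding protein LTBP1 was at 0.959 ± 0.310, 1.87 ± 0.321 and 21.2 ± 4.73 FPKM. THBS1 (thrombospondin, an activator of latent TGF-beta) was at 166 ± 94.6 FPKM in BPH-1 and 11 ± 3.25 in PC3 (-3.63, adjusted p = 4.11e-05), while DU145, at 75.2 ± 49.5, did not pass (-1.21, adjusted p = 0.0871). The integrin subunit ITGB6, which also activates latent TGF-beta, was at 4.04 ± 1.79 FPKM in BPH-1 and at most 0.0187 in any DU145 or PC3 library. Of the follistatin-like genes, FSTL1 was at 32.2 ± 12.4, 1.53 ± 0.957 and 27.6 ± 7.43 FPKM in BPH-1, DU145 and PC3, and FSTL3 at 12.2 ± 1.60, 11.7 ± 3.23 and 6.82 ± 2.04. BMPER, a secreted BMP regulator, was at 2.61 ± 0.657 FPKM in DU145, 0.188 ± 0.0544 in BPH-1 and listed at 0 in all PC3 libraries.

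Of 16 membrane and intracellular modulators tested, 6 were higher and 8 lower in PC3 against BPH-1 and 3 higher and 8 lower in DU145 against BPH-1. BAMBI, a decoy receptor, was higher in both (0.735 ± 0.280 FPKM in BPH-1, 4.34 ± 1.17 in DU145, 6.45 ± 1.85 in PC3). SKIL, a nuclear repressor of SMAD activity that TGF-beta itself induces, was lower in both (4.06 ± 0.386, 0.479 ± 0.311 and 0.214 ± 0.130 FPKM), as was TRIM33 (14.4 ± 1.56, 1.37 ± 1.21 and 2.32 ± 1.51 FPKM), a ubiquitin ligase that acts on SMADs. SMURF2, a ubiquitin ligase for the receptors, was called lower in PC3 (-0.98) and DU145 (-1.47) and in neither with the GC trend divided out (-0.02 and -0.49). PMEPA1, a feedback inhibitor, was lower in PC3 (0.861 ± 0.254 FPKM) than in BPH-1 (5.49 ± 5.03) and DU145 (5.43 ± 1.09).

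Transcripts known as TGF-beta or activin targets were all tested (12 of 12): 3 were higher and 7 lower in PC3 against BPH-1, and 4 higher and 6 lower in DU145 against BPH-1. CCN2 was at 408 ± 69.9 FPKM in DU145 against 17.7 ± 5.53 in BPH-1 (4.48, adjusted p = 4.25e-07) and 16.9 ± 6.44 in PC3. TGFBI was higher in DU145 (44.5 ± 5.83 against 24.2 ± 5.03 FPKM) and at 0.101 ± 0.0347 in PC3. FN1 (fibronectin) was lower in both, at 79.5 ± 39.6 FPKM in BPH-1, 0.767 ± 0.240 in DU145 and 8.60 ± 1.90 in PC3. ANGPTL4 was higher in both (0.239 ± 0.0918, 4.31 ± 1.68 and 1.12 ± 0.672 FPKM). CDKN2B, a cell cycle inhibitor, was lower in DU145 (5.69 ± 1.13 against 12.3 ± 2.41 FPKM) and did not pass in PC3 against BPH-1 (-0.26, adjusted p = 0.211), where it was called with the GC trend divided out (-0.45, adjusted p = 0.0388).

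Of 9 transcripts known as BMP targets, 1 was higher and 3 were lower of 6 tested in PC3 against BPH-1, and 4 were higher and 2 lower of 7 in DU145 against BPH-1. ID3 was at 26.4 ± 6.47 FPKM in BPH-1, 72.0 ± 20.9 in DU145 and 12.1 ± 5.65 in PC3, so PC3, the line with the most ID1, had the least ID3 (PC3 against DU145 -2.53 ± 0.32, adjusted p = 1.75e-04). ID4 was at 7.91 ± 2.13 FPKM in BPH-1 and at most 0.0329 in any DU145 or PC3 library. ID2 did not pass in any comparison (2.24 to 2.44 FPKM by line). HEY1 was higher in PC3 (2.96 ± 0.417 against 0.181 ± 0.0492 FPKM in BPH-1) and in DU145 (0.609 ± 0.0262), and ATOH8 was at 1.87 ± 0.492 FPKM in DU145 and at most 0.0905 in any other library. Against BPH-1, ID4 met the read minimum only through BPH-1, and ATOH8 in DU145 only through DU145. Their calls add no support beyond these levels.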

How the data were processed

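RNA sequencing of 12 libraries (3 lines, 4 libraries each) was analysed from the table the authors deposited. The header names no unit, and the deposited values have the form of FPKM. The submitters' processing notes name CASAVA 1.8, HISAT2 2.1.0, edgeR and GRCh38 (hg38) without stating their roles. The counting program, its use of strand and filters are not given in the sources used here. With gene length as the sum of distinct GENCODE 29 exons, 93.2% to 94.4% of low values came out as whole reads (within 0.05 of a read, up to 20 reads), against 21.5% to 25.0% with merged exons. The recovered depth, 12950665 to 16309559 reads, served for the filter, and read numbers cover counting error only. A GENCODE 29 length was lacking for 263 genes, which were not tested. 0 columns were left unassigned.

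limma 3.58.1 (R 4.3.3, intensity trend) was fitted to log2(FPKM + 1) for each pair of lines, with Benjamini-Hochberg adjustment over all genes tested, called at an adjusted p under 0.05. Genes needed 10 reads, scaled to the median depth (15341001), in 4 libraries of a fit and 15 reads in total. A fold change on this scale understates changes of low genes. Ratios in folds are of mean FPKM. Exact permutation tests were two-sided. On simulated data for PC3 against BPH-1, limma recovered 99% of 200 changed genes and called 10 unchanged ones (16474 tested). The GC step divided out each library's spline (5 degrees of freedom) of log2 FPKM on GC content, over genes with at least 50 reads in every library. On data simulated with a GC trend it lowered unchanged genes called from 1389 to 0 of 16540. Both simulations gave every gene the same small spread. The changed genes all had the same large fold, up or down, and reads above the minimum. The simulated GC trend was flatter than that between BPH-1 and the cancer lines, and libraries of a line did not differ in it. Neither simulation therefore measures performance on the differences given here. Other software was Python 3.11.15, numpy 2.4.6, pandas 2.3.3, scipy 1.17.1 and matplotlib 3.10.9.

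Members and lists were chosen with earlier results of these data known. Named were the 10 members, other genes set by role, and in each role list the called gene with the largest rise and fall against BPH-1. Alternatives were other filters, a pseudocount of 0.1, scalings, voom on recovered reads, 1 fit over 3 lines, the GC step, a replicate block, a fold threshold, permutation tests and leaving out libraries. Leaving out a pair of DU145 libraries was added after seeing the data. Replicates of a line differed by more than sampling error in each of 18 pairs (17.3 to 215 chi-square units per gene), so none counted as a duplicate. A few listed genes are not reported here.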

Additional observations from a re-analysis of the deposited data

Results flagged for a closer look

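Of the 10 members, 5 differed between the cancer lines, beside 48.3% of the 16421 genes tested, that is, their difference from BPH-1 was not the same in PC3 and DU145 by the test of PC3 against DU145, which uses no BPH-1 library. The log2 differences of PC3 against DU145 were 3.44 for INHBA, -0.71 for BMP4, 4.89 for FST, 1.64 for TGFBR2 and 1.04 for ID1. All 4 PC3 libraries lay on 1 side of all 4 DU145 libraries for each of these genes. The genes were picked by their call in the same libraries, so this adds no support. It held for SMAD3 too, which was not called (limma adjusted p = 0.0707). The share of all genes tested that lay apart in this way was not counted. Against BPH-1, FST and TGFBR2 were called in opposite directions in the 2 lines (3.84 and 0.67 in PC3, -1.05 and -0.97 in DU145). FST kept both calls under all alternatives run. TGFBR2 was called in 16 of 19 alternatives in PC3 against BPH-1 and in 14 of 21 in DU145 against BPH-1. In PC3 against DU145 without DU145 replicates 1 and 3, which stood apart in GC slope, TGFBR2 was at 0.98 and still called. BMP4 was there at -0.42 and not called (adjusted p = 0.0642). Among the 30 groups of 4 libraries (10 members in 3 lines), 0 held a library far from the others by Dixon's ratio. This ratio looks for a single library apart from the rest. It cannot flag a split into pairs, such as that of the DU145 libraries, so it does not show that libraries of a line agree.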

How the results depend on the processing

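Of 606 recomputed values of the members, 552 kept their direction and side of the threshold, 13 reversed, 21 were no longer called and 20 became called. Reversals touched only differences that were not called with the values as deposited. With the GC trend divided out, TGFB2 in PC3 against BPH-1 (0.64, adjusted p = 0.0392) reversed and was called. So did ID1 in DU145 against BPH-1 (-0.42, adjusted p = 0.0418). Both are counted among the 13 and not among the 20. In DU145 against BPH-1 TGFB1 (-0.17) and BMP4 (-0.034) reversed at that step without a call, as did ID1 (-0.18) with the same sum per library. Without DU145 replicates 1 and 3, BMP4 (-0.11) and ID1 (-0.19) reversed against BPH-1, and without replicates 2 and 4 TGFB2 did (-0.58), as did TGFB2 (0.15) and TGFBR1 (0.12) in PC3 against DU145. Leaving out single libraries put TGFB2 in DU145 against BPH-1 between -0.038 and 0.65 and ID1 between -0.059 and 0.23. The cause was not tested.

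Members called higher in DU145 against BPH-1 (1) were 2 with the GC trend divided out, 2 without replicates 1 and 3, 3 without replicates 2 and 4 and 1 to 3 with single libraries left out. Those called lower (5) were 3 without replicates 1 and 3 and 3 under the stricter filter, which leaves INHBA and TGFBR3 untested. Calls over all genes moved as well in this comparison, from 10668 of 17017 tested. They were 10643 of 17003 with the GC trend divided out and 10556 of 17859 without replicates 1 and 3. Without replicates 2 and 4 they were 12920 of 17913, and under the stricter filter 7721 of 13174. In PC3 against DU145, 8 members (2 lower) were called with the GC trend divided out, 2 were lower without replicates 1 and 3 and by exact permutation, and 1 to 2 were lower with single libraries left out. Over all genes 9689 of 16408 were called with the GC trend divided out and 9042 of 17269 without replicates 1 and 3, against 7937 of 16421.
Requiring an absolute log2 difference over 1 leaves fewer calls by construction: in PC3 against BPH-1 3 members (2 higher, 1 lower) and 38 other pathway genes (13 higher), in DU145 against BPH-1 3 members (2 lower) and 37 (15 higher, 22 lower), and in PC3 against DU145 0 lower members and 25 (11 higher, 14 lower). The stricter filter left 27 other pathway genes called in PC3 against DU145 (13 lower), beside 5298 of 12866 genes over all. The share of all genes past the fold threshold was not counted.

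Rescaling to the same sum moved the median of all genes by -0.16 in PC3 against BPH-1 and -0.14 in DU145 against BPH-1, and upper-quartile scaling by 0.11 in the former. The replicate numbers did not pair libraries (correlations of deviations from -0.77 to 0.61). With a replicate block 9, 6 and 5 members were called in the 3 comparisons. In PC3 against BPH-1 it added TGFB2 (adjusted p = 0.0464) and INHBA (adjusted p = 0.00791) and lost TGFBR3 (adjusted p = 0.0595), and over all genes 10734, 10133 and 6745 were called, against 11086, 10668 and 7937. BMP4 in PC3, FST and INHBA in DU145 and TGFBR3 rest on few reads, which limits their precision.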
